A study of Mus musculus with 14 samples.

Results

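Smooth muscle type cytoskeleton genes were followed in mouse embryonic stem cells (ESCs) across 4 groups of genotype and medium. The set holds 10 genes, Tagln, Acta1, Acta2, Actg2, Cnn1, Cnn2, Myl9, Tpm1, Tpm2 and Cald1, found by gene symbol in a table of 41204 genes. They were chosen by name with their values in these same samples known, so the values below describe them, no p is given for them, and a count of those called by limma is printed only beside the share of all genes called. Of the 10, 9 had a row. Acta1, the actin of skeletal muscle, was not analysed here. Actg2 was under the minimum of 0.2 FPKM (fragments per kilobase of transcript and per M mapped fragments) in its mean over the samples, which leaves 8 genes among the 15430 that entered the comparisons.

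Each genotype, wild type or Trincr1-/-, was grown in each medium, 2i + LIF or PD + LIF, and its poly(A) RNA sequenced from 2 samples per group, 8 in all, which the labels call biological replicates. All cells carried a C57BL/6(F) x 129/sv(M) background. In 2i + LIF the N2B27 medium held 1.0 µM PD0325901, an inhibitor of MEK, 3.0 µM CHIR99021, an inhibitor of GSK3, and 1000 units/ml of the cytokine LIF. In PD + LIF the cells spent 24 h in 2i + LIF and then 4 days without CHIR99021, so every group received PD0325901 and LIF. For the samples in 2i + LIF the time since plating is not given in the sources used here, so medium and time in culture cannot be told apart. Trincr1-/- ESCs lack exons 2 to 4 of the long non-coding RNA Trincr1 (Gm2694), which a pair of guide RNAs removed. Which knockout clone was sequenced is not stated, so the genotype and a clone cannot be told apart.

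The 10 genes encode parts of the actin and myosin apparatus. In smooth muscle the alpha and gamma actins form thin filaments, tropomyosins lie along those filaments, calponin, caldesmon and transgelin bind them, and the regulatory light chain sets the activity of myosin. Many of these genes carry CArG boxes, short elements bound by serum response factor (SRF), whose cofactors of the MRTF family respond to the pool of free actin. Several of them are also used outside muscle, in stress fibres of adherent and spreading cells.

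The RefSeq promoter table for GRCm38.p6, the build of the coordinates deposited with the expression values, held 8 windows for 7 of the genes (Acta2, Cnn1, Cnn2, Myl9, Tpm1, Tpm2 and Cald1, the last with 2). Tagln and Actg2 had no entry. The 250 bases before each start were searched on both strands for the CArG box, which is CC, 6 bases that are A or T, and GG, and for the MCAT element bound by TEAD factors, CATTCC. The motifs can overlap in principle. Perfect CArG boxes were found in 2 of the 7 genes, Cnn2 and Myl9, against 1.47% of 32851 promoter windows in the table. With 1 other base allowed among the middle 6, 3 of the 7 held a match, Acta2 being added, against 8.59% of all windows. MCAT was found in Acta2, Tpm1 and the upstream window of Cald1, against 12.6% of all windows. A match is a description of the letters only. The 4 windows below are shown because they hold these elements in genes described further on, with the CArG boxes (up to 1 other base) and MCAT elements in capitals, 5′ to 3′ in the direction of the gene and ending at the base before the start.
Cnn2, chr10:79988350-79988599, plus strand: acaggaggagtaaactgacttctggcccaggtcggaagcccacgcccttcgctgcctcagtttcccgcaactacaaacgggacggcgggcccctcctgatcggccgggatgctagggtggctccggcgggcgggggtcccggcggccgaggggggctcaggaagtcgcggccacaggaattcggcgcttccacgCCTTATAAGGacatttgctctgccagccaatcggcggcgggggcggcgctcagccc
Myl9, chr2:156775214-156775463, plus strand: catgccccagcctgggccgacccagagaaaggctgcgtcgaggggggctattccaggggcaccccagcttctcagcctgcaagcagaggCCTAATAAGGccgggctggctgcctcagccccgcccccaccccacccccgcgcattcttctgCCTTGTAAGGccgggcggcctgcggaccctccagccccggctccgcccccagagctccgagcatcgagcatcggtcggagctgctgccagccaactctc
Acta2, chr19:34255374-34255623, minus strand: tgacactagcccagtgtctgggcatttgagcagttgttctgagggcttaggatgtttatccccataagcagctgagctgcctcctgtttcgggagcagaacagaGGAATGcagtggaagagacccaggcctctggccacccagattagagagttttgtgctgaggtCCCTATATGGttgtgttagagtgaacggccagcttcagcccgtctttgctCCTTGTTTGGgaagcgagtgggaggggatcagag
Tpm1, chr9:67049214-67049463, minus strand: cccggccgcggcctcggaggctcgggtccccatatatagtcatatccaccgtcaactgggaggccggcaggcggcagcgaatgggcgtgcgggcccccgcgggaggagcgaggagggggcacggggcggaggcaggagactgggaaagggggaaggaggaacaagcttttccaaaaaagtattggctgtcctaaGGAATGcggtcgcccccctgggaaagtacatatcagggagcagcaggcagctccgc
In Cnn2 the CArG box CCTTATAAGG lay 56 to 47 bases before the start. Myl9 held the perfect box CCTAATAAGG 161 to 152 bases before the start and CCTTGTAAGG, with 1 other base, 99 to 90 bases before it. Acta2 held 2 boxes with 1 other base each, CCCTATATGG at 84 to 75 bases and CCTTGTTTGG at 34 to 25 bases before the start, and an MCAT element at 146 to 141 bases. Tpm1 held an MCAT element at 56 to 51 bases before the start.

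The knockout was checked first. Gm2694 was at 5.70 and 9.45 FPKM in wild-type ESCs in 2i + LIF and at 0.0754 and 0 FPKM in Trincr1-/- ESCs in 2i + LIF. In PD + LIF it was at 6.18 and 6.56 FPKM in wild type and at 1.38 and 0.746 FPKM in Trincr1-/-. It was lower in both knockout groups without overlap, and not at 0 in PD + LIF. The FPKM sums of the 8 samples lay between 497115 and 519651. From the lowest steps of FPKM in 5096 genes with 1 annotated transcript, 1 fragment on a transcript of 1000 bases was worth 0.0799 to 0.110 FPKM, which puts the depth at roughly 9.07 to 12.5 M fragments per sample. That estimate uses whole transcript lengths.

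Every gene of the set that could be compared was higher in PD + LIF than in 2i + LIF, in both genotypes, and no PD + LIF sample overlapped a 2i + LIF sample for any of the 8. The genes fell into 2 kinds. Tagln, Acta2, Cnn1 and Myl9 went from a few fragments per library to 2.55 to 66.5 FPKM, while Cnn2, Tpm1, Tpm2 and Cald1 were present in 2i + LIF and went up from there. In bulk RNA, more cells that make a transcript and more transcript per cell cannot be told apart.

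**Figure D1:**
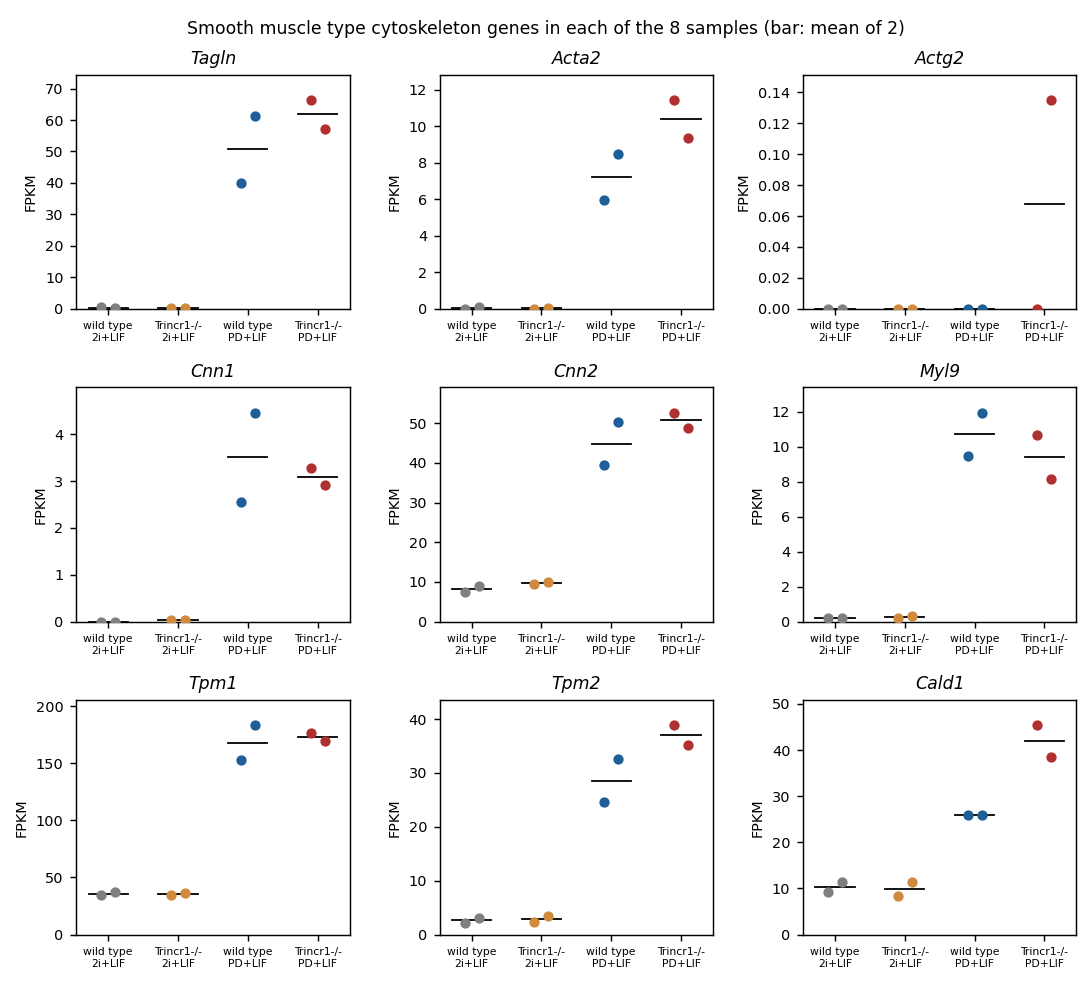
FPKM (y axes, linear and from 0) of the 9 genes with a row in each of the 8 samples, 2 points per group and a bar at their mean. Tagln lies at 0.142 to 0.422 FPKM in the 4 samples in 2i + LIF and at 40.0 to 66.5 FPKM in the 4 samples in PD + LIF, and Actg2 is above 0 in a single sample.

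The actin-binding proteins come first. Tagln, which encodes transgelin (SM22-alpha), an actin cross-linker used as an early marker of smooth muscle, was at 0.422 and 0.241 FPKM in wild type and at 0.179 and 0.142 FPKM in Trincr1-/- in 2i + LIF. These low values stand for an estimated 7.1, 4.1, 3.1 and 2 fragments. In PD + LIF it was at 40.0 and 61.4 FPKM in wild type and at 66.5 and 57.0 FPKM in Trincr1-/-. The ratio of group means was 153 in wild type, with a 95% interval from exact binomial counting error of 85.2 to 307, and 384 in Trincr1-/-, with an interval of 164 to 1183. On the log2(FPKM + 1) scale, which understates changes of low genes, the difference was 5.25 ± 0.19 (SE, n = 2 per group) in wild type and 5.75 ± 0.19 in Trincr1-/-, the fifth largest and the third largest rise of all genes tested. Tagln (chr9:45929627-45936058) overlaps the neighbouring Pcsk7 at its edge and shares 16 of 1537 windows of 50 bases with it. Pcsk7 was at 2.23 to 3.70 FPKM in the 8 samples, and whether strand was used in counting is not given in the sources used here. How fragments of the shared stretch were divided was not tested.

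Cnn1, which encodes calponin 1, an inhibitor of actomyosin in smooth muscle, was listed at 0 in both wild-type samples and at 0.0380 and 0.0453 FPKM in Trincr1-/- in 2i + LIF, an estimated 1 fragment in each of the latter. In PD + LIF Cnn1 was at 2.55 and 4.46 FPKM in wild type and at 3.28 and 2.91 FPKM in Trincr1-/-. The log2 differences were 2.14 ± 0.20 and 1.97 ± 0.20. The ratio in Trincr1-/- was 74.3, with a counting interval of 20.2 to 618, and none is given for wild type, where the base is 0.

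Cnn2, the calponin that non-muscle cells also use, was at 7.43 and 8.96 FPKM in wild type and at 9.48 and 10.1 FPKM in Trincr1-/- in 2i + LIF. In PD + LIF it reached 39.5 and 50.2 FPKM in wild type and 52.7 and 48.9 FPKM in Trincr1-/-. The group means differed by 5.47 times and 5.18 times, with log2 differences of 2.31 ± 0.13 and 2.26 ± 0.13. Cnn2 thus stood well above Cnn1 in every sample.

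Cald1, which encodes caldesmon, a protein that binds actin, tropomyosin and myosin, was at 9.22 and 11.4 FPKM in wild type and at 8.46 and 11.4 FPKM in Trincr1-/- in 2i + LIF. In PD + LIF it was at 26.0 and 25.9 FPKM in wild type and at 45.4 and 38.4 FPKM in Trincr1-/-. Its log2 difference between media was 1.26 ± 0.15 in wild type, the smallest of the 8, and 1.98 ± 0.15 in Trincr1-/-. These are 2.52-fold and 4.22-fold differences of the group means.

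Of the actins, Acta2, the alpha actin of vascular smooth muscle and of myofibroblasts, was at 0 and 0.105 FPKM in wild type and at 0 and 0.0623 FPKM in Trincr1-/- in 2i + LIF, an estimated 2 fragments and 1 fragment in the samples above 0. In PD + LIF Acta2 was at 5.96 and 8.48 FPKM in wild type and at 11.5 and 9.35 FPKM in Trincr1-/-. Log2 differences were 2.95 ± 0.18 and 3.46 ± 0.18. The ratio of means was 137 in wild type and 334 in Trincr1-/-, with counting intervals of 37.6 to 1136 and 59.6 to 13224, which are wide because so few fragments make up the base. Actg2, the gamma actin of enteric smooth muscle, was listed at 0 in 7 samples and at 0.135 FPKM, an estimated 2.1 fragments, in a single Trincr1-/- sample in PD + LIF. At this depth Actg2 was not distinguishable from 0 in any group, nor was Acta2 in 2i + LIF, whereas Acta2 was well above that level in PD + LIF.

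Myl9, which encodes a regulatory light chain of smooth muscle and non-muscle myosin II, was at 0.206 and 0.182 FPKM in wild type and at 0.194 and 0.321 FPKM in Trincr1-/- in 2i + LIF. In PD + LIF it was at 9.47 and 11.96 FPKM in wild type and at 10.6 and 8.13 FPKM in Trincr1-/-. The ratio of means was 55.3 in wild type, with a counting interval of 23.4 to 172, and 36.5 in Trincr1-/-, with an interval of 16.5 to 100.4. Log2 differences were 3.29 ± 0.16 and 3.04 ± 0.16.

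The tropomyosins were both expressed in 2i + LIF. Tpm1, the most abundant gene of the set in every sample, was at 34.9 and 36.9 FPKM in wild type and at 34.7 and 36.6 FPKM in Trincr1-/- in 2i + LIF, and at 153 and 183 FPKM in wild type and 176 and 170 FPKM in Trincr1-/- in PD + LIF. The means differed 4.68-fold and 4.85-fold, with log2 differences of 2.19 ± 0.08 and 2.25 ± 0.08. Tpm2 was at 2.19 and 3.12 FPKM in wild type and at 2.27 and 3.41 FPKM in Trincr1-/- in 2i + LIF. In PD + LIF it was at 24.6 and 32.5 FPKM in wild type and at 38.8 and 35.2 FPKM in Trincr1-/-, which gives 10.8-fold and 13.0-fold differences of means and log2 differences of 3.02 ± 0.20 and 3.32 ± 0.20. Both genes make many isoforms, which a value per gene does not separate.

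**Figure D2:**
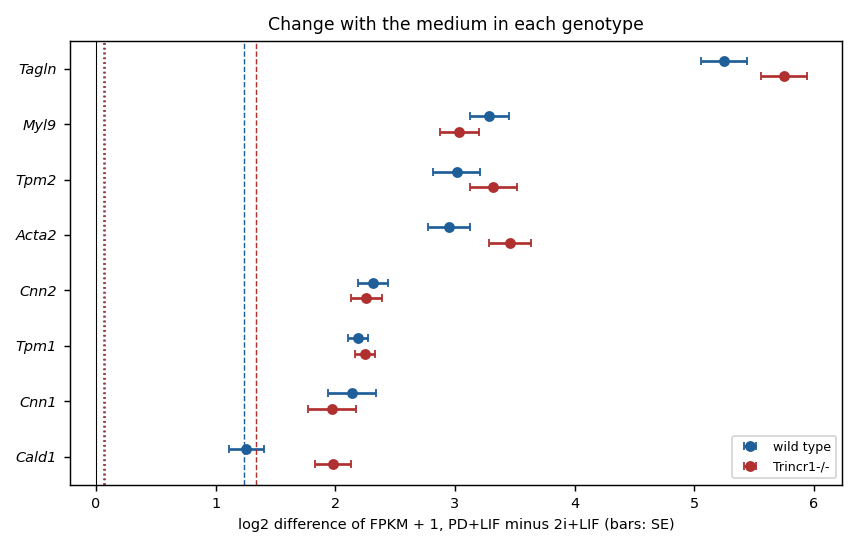
Log2 difference of FPKM + 1 between PD + LIF and 2i + LIF (x axis) for the 8 genes compared, with SE bars, in wild-type (blue) and Trincr1-/- (red) ESCs. Dotted lines mark the median of all 15430 genes, 0.08 and 0.07, and dashed lines the level that 5% of all genes exceed, 1.24 and 1.34. Every gene lies above both dashed lines in Trincr1-/-, and Cald1 at 1.26 lies next to the wild-type line.

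By limma across all genes, 8 of the 8 genes were called higher in PD + LIF in wild type, where 30.9% of all genes tested were called higher, and 8 of 8 in Trincr1-/-, where 29.6% were. Samples did not overlap, with PD + LIF higher, for 44.4% of all genes in wild type and for 43.3% in Trincr1-/-. The choice of the genes used these values, so nothing is read from the counts. Acta2 and Cnn1 were under 0.2 FPKM in all 4 samples in 2i + LIF and entered only through PD + LIF. The genes nearest the minimum of 0.2 FPKM were Actg2, with a mean of 0.0169 FPKM over the 8 samples and left out, and Cnn1, with a mean of 1.66 FPKM and kept.

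The order of the levels, in FPKM, differed between media. In wild type in 2i + LIF Tpm1 was followed by Cald1, Cnn2 and Tpm2, and then, below 0.5 FPKM, by Tagln, Myl9, Acta2 and Cnn1. In PD + LIF Tpm1 was followed by Tagln and Cnn2, whose wild-type samples overlapped at 40.0 to 61.4 and 39.5 to 50.2 FPKM. Tpm2 and Cald1 came next and also overlapped, and Myl9, Acta2 and Cnn1 followed without overlap. In Trincr1-/- in PD + LIF Tagln stood above Cnn2 without overlap, while Cald1 and Tpm2 overlapped, as did Acta2 and Myl9. The summed FPKM of the 9 genes with a row was 54.4 to 62.1 in the 4 samples in 2i + LIF and 301 to 405 in the 4 samples in PD + LIF. Without Tpm1 the sums were 19.5 to 25.5 and 148 to 229 FPKM.

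Relatives of these genes outside the set, most of which serve the cytoskeleton of many cell types, showed how large a part of each family the set made up. Tagln was 0.514% ± 0.154 (SD, n = 2) of the summed FPKM of the transgelins Tagln, Tagln2 and Tagln3 in wild type in 2i + LIF and 28.5% ± 3.90 in PD + LIF. In Trincr1-/- it was 0.241% ± 0.0583 and 26.9% ± 1.75. The rise came on top of Tagln2, which itself was higher in PD + LIF in wild type, 61.1 ± 6.24 against 120.0 ± 14.8 FPKM, a log2 difference of 0.96 (limma, adjusted p = 0.00026). Tpm1 and Tpm2 together were 11.02% ± 0.438 of the tropomyosins in wild type in 2i + LIF and 40.2% ± 2.09 in PD + LIF, and 11.1% ± 0.618 and 37.2% ± 0.344 in Trincr1-/-. Of the other two, Tpm3 was lower in PD + LIF in wild type, 260 ± 0.946 against 194 ± 3.12 FPKM (log2 difference −0.42, limma, adjusted p = 0.00023), and Tpm4 was higher, 51.7 ± 1.96 against 97.2 ± 11.9 FPKM (log2 difference 0.89, limma, adjusted p = 0.00018).

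In the calponins Cnn1 and Cnn2 rose from 3.83% ± 0.448 to 15.2% ± 2.33 of the family in wild type and from 5.43% ± 0.367 to 21.9% ± 1.44 in Trincr1-/-, the rest being Cnn3, at 206 ± 2.12 and 270 ± 0.788 FPKM in wild type. Myl9 was 0.0645% ± 0.00702 of the regulatory light chains in wild type in 2i + LIF and 3.42% ± 0.430 in PD + LIF, beside Myl12a and Myl12b at over 100 FPKM each in every sample. Acta2 and Actg2 made up the smallest part, 0.355% ± 0.0674 of the actins in wild type in PD + LIF and 0.449% ± 0.0494 in Trincr1-/-, where Actb was at 1573 ± 118 and 1722 ± 67.9 FPKM and Actg1 at 445 ± 2.36 and 596 ± 14.4 FPKM. Among the actins counted here, nearly all RNA was thus of the cytoplasmic Actb and Actg1. Acta1 had no row and is in neither the share nor the sum. Of the 12 relatives, 11 were tested, and 6 were called higher and 3 lower in PD + LIF in each genotype, where 30.9% and 29.6% of all genes were called higher and 21.3% and 20.3% lower in wild type and in Trincr1-/-. Actc1, the cardiac actin, was listed at 0 in all 4 samples in 2i + LIF and reached at most 0.338 FPKM.

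**Figure D3:**
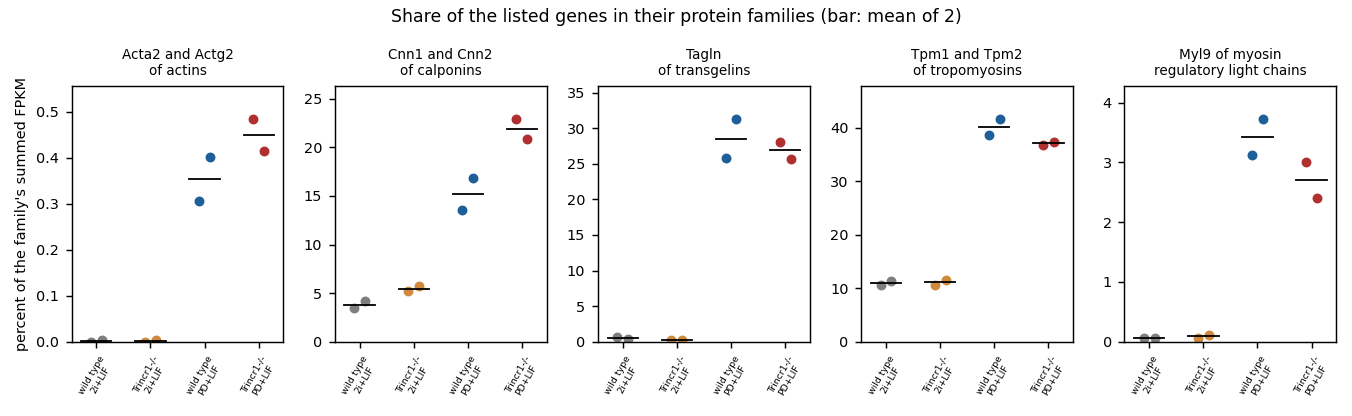
Share of the listed genes in the summed FPKM of their protein family (y axes, percent, each from 0 and each on its own scale), 2 points per group and a bar at their mean. The share is larger in the 4 samples in PD + LIF than in the 4 samples in 2i + LIF in all 5 families, and ranges in PD + LIF from 0.307% to 0.484% of actins to 36.9% to 41.7% of tropomyosins.

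Between genotypes the differences were smaller than those between media for each of the 8 genes. In 2i + LIF 0 of the 8 were called higher and 0 lower, where 0.350% and 0.855% of all genes were, and 2253 genes had an unadjusted p under 0.05. Log2 differences lay between −0.19 (Tagln) and 0.24 (Cnn2). In PD + LIF Cald1 alone was called, higher by 0.67 ± 0.15 on the log2 scale, against 6.29% of all genes called higher and 5.77% called lower. The Cald1 samples were at 45.4 and 38.4 FPKM in Trincr1-/- and at 26.0 and 25.9 FPKM in wild type, a 1.62-fold difference of means. The call was lost when any of the 4 samples in PD + LIF was left out, with log2 differences of 0.55 to 0.78. The shares of all genes called higher and called lower also fell whichever of the 8 samples, in either medium, was left out. Calls over all genes numbered 1861 with every sample, 349 without the first Trincr1-/- sample in PD + LIF, 773 without the second, 502 without the first wild-type sample there and 743 without the second.

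Samples of Acta2, Tpm2 and Cald1 did not overlap between genotypes in PD + LIF, Trincr1-/- being higher, which makes 3 of 8 beside 30.2% of all genes, and for 0 of 8 was Trincr1-/- lower without overlap, beside 27.5% of all genes. Acta2 differed by 0.48 ± 0.18, Tpm2 by 0.37 ± 0.20, Tagln by 0.31 ± 0.19, Cnn2 by 0.18 ± 0.13 and Tpm1 by 0.05 ± 0.08 on the log2 scale, and Cnn1 by −0.11 ± 0.20 and Myl9 by −0.18 ± 0.16. In wild type the first of the PD + LIF samples was lower than the second for 7 of these 8 genes, Cald1 being the exception, and leaving it out took the Tagln difference to 0.00 while leaving out the second took it to 0.61. The effect of the genotype differed between media for 0 of the 8 by limma, where 1.81% of all genes were called and 2936 had an unadjusted p under 0.05, and the difference was largest for Cald1, at 0.72 ± 0.21.

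**Figure D4:**
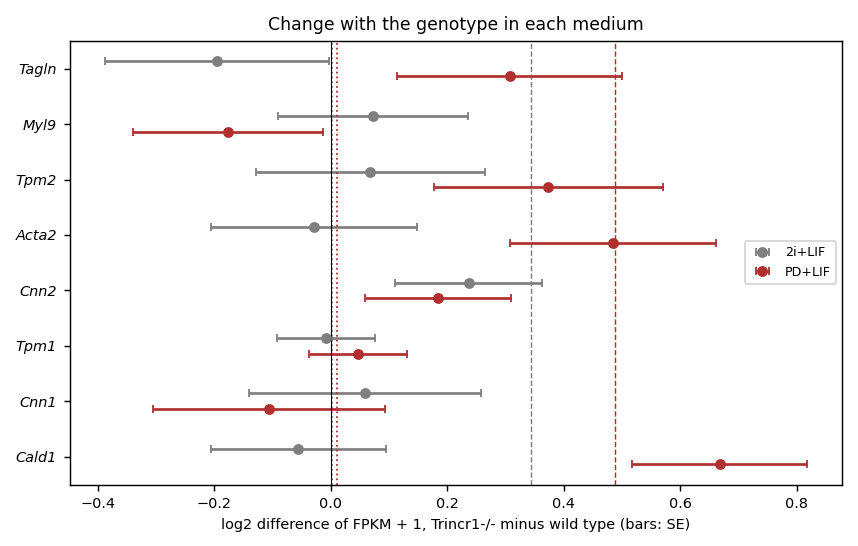
Log2 difference of FPKM + 1 between Trincr1-/- and wild type (x axis) for the 8 genes compared, with SE bars, in 2i + LIF (grey) and PD + LIF (red). Dotted lines mark the medians of all genes, 0.00 and 0.01, and dashed lines the level that 5% of all genes exceed, 0.34 and 0.49. Cald1 in PD + LIF, at 0.67, is the 1 gene whose value lies beyond its dashed line.

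The set was put beside other genes of smooth muscle, as a list of 12 chosen with earlier results of these data known. The list therefore does not test the label of the set. Some of these markers of differentiated smooth muscle were at or near 0. Kcnmb1, a subunit of its potassium channel, was listed at 0 in every sample, and Pln (phospholamban) was above 0 in a single sample at 0.0333 FPKM. Myh11, the smooth muscle myosin heavy chain, reached at most 0.0662 FPKM, and Myocd, the SRF cofactor myocardin, at most 0.209 FPKM. Whether any cells were of smooth muscle type was not tested, and the set is described as a group of cytoskeleton genes. Others on the list were higher in PD + LIF. The summed FPKM of the 12 was 18.9 to 25.1 in the 4 samples in 2i + LIF and 91.5 to 96.6 in the 4 samples in PD + LIF. Lmod1 (leiomodin 1) was at 0.0884 ± 0.0626 FPKM in wild type in 2i + LIF and at 1.02 ± 0.202 FPKM in PD + LIF (log2 difference 0.89, limma, adjusted p = 0.00105). In Trincr1-/- it was at 0.0110 and 0.632 FPKM. Ppp1r14a, which encodes an inhibitor of myosin phosphatase, was at 8.41 ± 3.31 FPKM in wild type in 2i + LIF and at 60.9 ± 1.30 FPKM in PD + LIF (log2 difference 2.76, limma, adjusted p = 4.7e-05). The intermediate filament gene Des went from 3.37 ± 0.807 to 13.3 ± 0.271 FPKM (log2 difference 1.73, limma, adjusted p = 6.2e-05), and Smtn, which encodes the actin-binding smoothelin, from 7.83 ± 0.725 to 15.7 ± 1.30 FPKM (log2 difference 0.92, limma, adjusted p = 0.0003). Of the 6 genes of the list that were tested, 6 were called higher in PD + LIF in wild type and 5 in Trincr1-/-, with 0 lower. Of all genes 30.9% and 29.6% were called higher. The median log2 difference of the 6 was 1.03 and 0.90 against 0.08 and 0.07 over all genes. Of the 6, Lmod1 and Synpo2 were under 0.2 FPKM in every sample in 2i + LIF and entered only through PD + LIF. Nothing is read from these counts and medians. Between genotypes 0 of the 6 were called in either medium. There 0.350% of all genes were called higher and 0.855% lower in 2i + LIF, and 6.29% and 5.77% in PD + LIF.

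Targets of SRF and its MRTF cofactors other than the set were taken as a list of 24, of which 22 were tested. In wild type 16 were called higher and 3 lower in PD + LIF, with a median log2 difference of 0.52, and in Trincr1-/- 15 were higher and 2 lower, with a median of 0.66. Of all genes 30.9% were called higher and 21.3% lower in wild type, and 29.6% and 20.3% in Trincr1-/-. Those with the largest differences were Nexn, which encodes an actin filament protein (0.12 to 4.04 FPKM between the wild-type means), Thbs1 (thrombospondin 1, 0.0292 to 2.79 FPKM) and Cyr61, a secreted matricellular protein (8.02 to 29.5 FPKM), picked after their values were seen. Ctgf, a relative of Cyr61, moved the other way, from 15.7 to 7.65 FPKM (log2 difference −0.95, limma, adjusted p = 0.000198). Between genotypes 0 of the 22 were called in 2i + LIF and 6 were higher and 1 lower in Trincr1-/- in PD + LIF, with a median of 0.21 against 0.01 over all genes, of which 6.29% were called higher and 5.77% lower. The called genes with the largest differences were Tgfb1i1, a focal adhesion protein (0.95 ± 0.15, limma, adjusted p = 0.0101), Zyx, which encodes the focal adhesion protein zyxin (0.76 ± 0.14, limma, adjusted p = 0.0178), Fhl1 (0.52 ± 0.10, limma, adjusted p = 0.0228) and, in the other direction, Lima1, which cross-links actin filaments (−0.71 ± 0.05, limma, adjusted p = 0.00153). Without the first Trincr1-/- sample in PD + LIF 1 of the 22 was called, without the second 4, and without the first wild-type sample in PD + LIF 3.

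Regulators of these genes were taken as a list of 22 from the SRF, TGF-beta and YAP pathways. Of these, 20 were tested, and 8 were called higher and 5 lower in PD + LIF in wild type, with a median log2 difference of 0.10, and 9 higher and 4 lower in Trincr1-/-, with a median of 0.20. These counts stand beside the shares of all genes called, 30.9% higher and 21.3% lower in wild type and 29.6% and 20.3% in Trincr1-/-. Nothing is read from them. Srf itself was at 10.8 FPKM in wild type in 2i + LIF and 15.2 FPKM in PD + LIF (log2 difference 0.45), and Mkl2, which encodes MRTF-B, at 5.14 and 7.57 FPKM (0.48), both called. Tead3, a factor of the family that binds MCAT elements, was at 1.56 and 7.19 FPKM (1.68, called). Srf, Mkl2 and Tead3 were picked after their values were seen, beside the 5 regulators called lower in wild type. Between genotypes 0 were called in 2i + LIF, and in PD + LIF Yap1 was higher in Trincr1-/- (0.21 ± 0.05, limma, adjusted p = 0.0409) and Tead4 lower (−0.32 ± 0.07, limma, adjusted p = 0.0291).

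Among 12 motors and regulators of actomyosin, 5 were called higher and 2 lower in PD + LIF in wild type and 5 higher and 1 lower in Trincr1-/-, with medians of 0.13 and 0.16. Here the counts stand beside the 30.9% and 21.3% of all genes called higher and lower in wild type and the 29.6% and 20.3% in Trincr1-/-. Nothing is read from these either. Myh9 and Myh10, the heavy chains of the non-muscle myosin II that Myl9 can serve, were at 55.2 and 11.1 FPKM in wild type in 2i + LIF and at 114 and 32.8 FPKM in PD + LIF (log2 differences 1.03 and 1.48, both called). Both were picked after their values were seen, beside the 2 genes called lower in wild type. Between genotypes 0 of the 12 were called in 2i + LIF and 4 were higher in Trincr1-/- in PD + LIF. These were Lmna (0.65 ± 0.14), Pfn1 (0.43 ± 0.06), Myh10 (0.37 ± 0.07) and Cfl1 (0.34 ± 0.05). Between genotypes 0.350% of all genes were called higher and 0.855% lower in 2i + LIF, and 6.29% and 5.77% in PD + LIF. Of the relatives of the set, 1 was higher and 1 lower in Trincr1-/- in 2i + LIF (Actg1 and Cnn3), and 5 were higher and 1 lower in PD + LIF, led by Tpm4 (0.60 ± 0.09, limma, adjusted p = 0.0085), Cnn3 (−0.49 ± 0.04, limma, adjusted p = 0.00188), Tagln2 (0.46 ± 0.10, limma, adjusted p = 0.0323) and Actg1 (0.42 ± 0.04, limma, adjusted p = 0.00342).

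**Figure D5:**
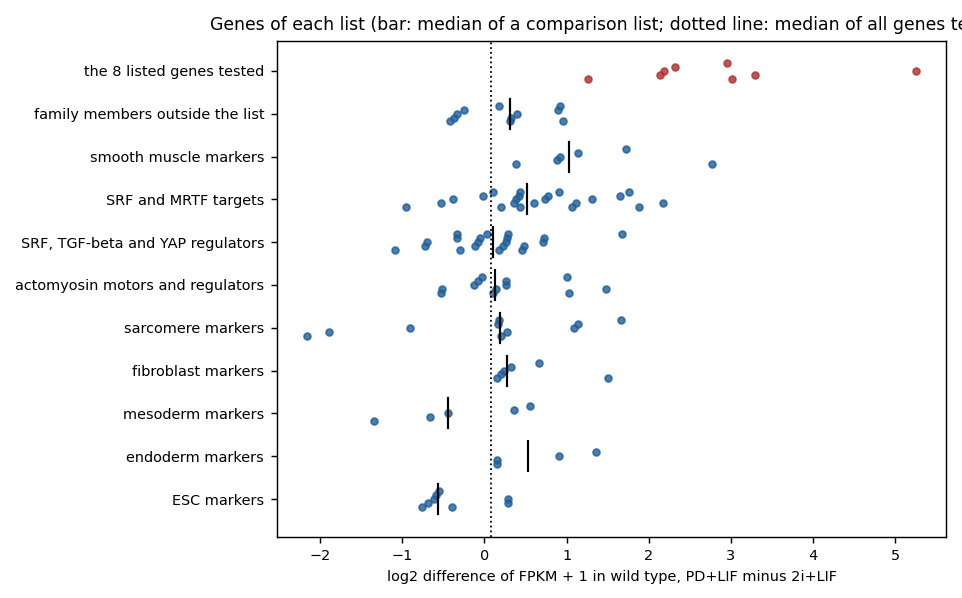
Log2 difference of FPKM + 1 between PD + LIF and 2i + LIF in wild-type ESCs (x axis) for each gene tested of the 8 listed genes (red) and of the 10 comparison lists (blue), with a bar at the median of each comparison list and a dotted line at 0.08, the median of all genes. The 8 genes lie between 1.26 and 5.25, and the median of the SRF and MRTF targets lies at 0.52.

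Markers of other cell types moved with the medium too, at low levels, and their part in the values above was not tested. The minimum was set on the mean over both media, so a low marker could enter through the medium where it was higher. The counts below stand beside 30.9% of all genes called higher and 21.3% lower in PD + LIF in wild type. In Trincr1-/- these shares were 29.6% and 20.3%. Between genotypes in PD + LIF 6.29% of all genes were called higher and 5.77% lower. The summed FPKM of 13 fibroblast markers was 1.23 to 2.14 in the 4 samples in 2i + LIF and 5.82 to 9.34 in PD + LIF. Thy1 made up much of it, and Dcn, Lum, Prrx1 and Twist2 stayed under 0.2 FPKM. Of the 6 tested, 3 were called higher in PD + LIF in wild type and 5 in Trincr1-/-, and between genotypes Col1a1, a collagen chain, was higher in Trincr1-/- in PD + LIF (1.03 ± 0.11, limma, adjusted p = 0.0037). For 8 endoderm markers the sums were 1.10 to 1.93 and 4.70 to 7.94 FPKM, 2 and 4 of 4 tested were called higher in PD + LIF in wild type and Trincr1-/-, and Foxa2 was higher in Trincr1-/- in PD + LIF (0.90 ± 0.17, limma, adjusted p = 0.0182). For 8 mesoderm markers, of which 7 had a row, the sums were 4.80 to 5.76 and 2.70 to 4.91 FPKM. In each genotype 1 of 5 was higher and 3 were lower in PD + LIF, and Hand1 was higher in Trincr1-/- in PD + LIF (1.39 ± 0.11, limma, adjusted p = 0.00188).

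The 17 markers of the sarcomere, the contractile unit of heart and skeletal muscle, summed to 29.2 to 32.4 FPKM in 2i + LIF and 31.9 to 38.6 FPKM in PD + LIF in wild type, which overlapped. In Trincr1-/- they summed to 32.6 to 36.8 FPKM in 2i + LIF and 24.9 to 30.6 FPKM in PD + LIF, lower without overlap and also below wild type in PD + LIF. Of the 10 tested, 3 were higher and 3 lower in PD + LIF in wild type, and 3 and 4 in Trincr1-/-, beside 30.9% and 21.3% of all genes in wild type and 29.6% and 20.3% in Trincr1-/-, and Myod1, Myog and Myl1 were listed at 0 in every sample. Between genotypes Ttn was higher (0.57 ± 0.11, limma, adjusted p = 0.021) and Tnnt1 lower (−0.57 ± 0.11, limma, adjusted p = 0.0228) in Trincr1-/- in PD + LIF. The 8 ESC markers stayed high, at a summed 1989 to 2006 FPKM in 2i + LIF and 1186 to 1423 FPKM in PD + LIF. In wild type 2 of these 8 were higher and 6 lower in PD + LIF, and in Trincr1-/- 6 were lower, beside the same shares of all genes. In PD + LIF 5 were lower in Trincr1-/- than in wild type, beside 5.77% of all genes. They were led by Esrrb (−0.57 ± 0.06, limma, adjusted p = 0.00333), Klf2, Nanog and Sox2. None of the fibroblast, endoderm, mesoderm, sarcomere or ESC markers was called between genotypes in 2i + LIF by limma.

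Across the 8 samples, the genes outside the set whose log2(FPKM + 1) followed Tagln most closely were Ddit4, Slc9a5, Ccni, Mapk11 and Jun, each with Pearson's r = 0.999, among 12062 genes with a mean of at least 1 FPKM. Within the set r with Tagln was 0.999 for Tpm1, 0.996 for Acta2, 0.995 for Myl9, 0.993 for Tpm2, 0.992 for Cnn2, 0.991 for Cnn1 and 0.956 for Cald1. As many as 1445 genes had r above 0.95. The 8 points share 2 media and fall into those clusters.

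A second experiment gave the levels of these genes in other ESCs, which overexpressed FLAG-tagged TRIM71. RNA bound to FLAG-tagged TRIM71, an RNA-binding ubiquitin ligase, was pulled down from ESCs in 2i + LIF after UV crosslinking and sequenced beside its input, and the authors deposited 1 pooled value each for 14054 transcripts, so there are no replicates and the depth is unknown. The methods describe selection for poly(A) for total RNA and direct use of the RNA from the pulldown experiment. They do not say which applied to the input. Reads on transcripts without poly(A) were left out by the authors. In the input Tpm1 was at 45.6 FPKM, Cald1 at 16.4, Cnn2 at 11.4, Tpm2 at 4 FPKM, Myl9 at 0.8 FPKM and Tagln at 0.3 FPKM, while Acta2, Actg2 and Cnn1 were not listed. That is the order of the wild-type samples in 2i + LIF, except that Myl9 stood above Tagln. What the overexpression did to these levels was not tested.

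All 6 of the genes listed were at 0 in the pulldown, as were 60.2% of all transcripts. Among the 2362 transcripts with an input within 2-fold of that of Tpm1, 27.9% were at 0, and the shares for Cald1, Cnn2 and Tpm2 were 43.9%, 49.99% and 68.2%. For Myl9 and Tagln, whose input was under 1 FPKM, 89.0% and 94.4% of transcripts of like input were at 0. Relatives of higher level were not at 0: the input held Actb at 1884.2 FPKM and the pulldown at 222.5 FPKM before scaling, Tagln2 at 200.3 and 70.4 FPKM, Cnn3 at 213.4 and 12.5 FPKM, and Tpm4, whose input of 38.8 FPKM was below that of Tpm1, at 1.8 FPKM. After the authors' scaling, all 4 of these relatives were lower in the pulldown than in the input, with ratios of 0.265, 0.789, 0.132 and 0.103.

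Positions in GRCm38 were taken from the deposited table. Beside Tagln on chromosome 9, they are chr19:34241089-34255336 for Acta2, chr6:83512904-83536265 for Actg2, chr9:22099280-22109630 for Cnn1, chr10:79988583-79996062 for Cnn2, chr2:156775419-156781658 for Myl9, chr9:67022589-67049406 for Tpm1, chr4:43514710-43523765 for Tpm2 and chr6:34598499-34775473 for Cald1. The genes thus lie on 6 chromosomes. Reads of near-identical relatives were a small concern, since no window of 50 bases of Actg2, Cnn1, Cnn2, Myl9, Tpm1, Tpm2 or Cald1 occurs in the coding transcripts of another gene, and 7 of 1732 windows of Acta2 do, in Actg1.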

How the data were processed

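Per the labels and methods, RNA was extracted with TRIzol, and total RNA was selected for poly(A). The authors aligned reads and estimated expression (submitters' processing notes: STAR 2.5.0 and Cufflinks 2.2.1) and deposited normalized FPKM values per gene and sample. The notes name mm9, while 79.5% of 30219 genes matched GRCm38.p6 within 1000 bases, as did all 9 genes of the set with a row. For the pulldown the authors deposited FPKM per transcript, unscaled, and as a signal that the authors scaled to a like average. Their column of fold enrichment was not used. A control pulldown was not analysed here. No column lacked a sample.

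The table held 41260 entries; for 39 identifiers with several entries only that of highest mean was used, and 27 symbols were restored from identifiers. Log2(FPKM + 1) of genes with a mean above 0.2 FPKM was fitted with limma 3.58.1 (R 4.3.3), 4 group means and a variance trend in 1 model, two-sided, with Benjamini-Hochberg adjustment over 15430 genes and a threshold of 0.05. On simulated data for the wild-type medium comparison, with 15430 genes of which 200 were changed by 1.5 on the log2 scale, 186 were recovered with 13 false calls. Counting intervals are 95% exact binomial on estimated fragments, and cover counting error only. Python 3.11.15, pandas 2.3.3, numpy 2.4.6, scipy 1.17.1 and matplotlib 3.10.9 were used.

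The members and lists were chosen with earlier results of these data known. Named genes are all members, per list up to 4 called genes with the largest genotype difference, the 5 genes most like Tagln, and relatives of members; genes named for the medium from the lists were picked after their values were seen.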

Additional observations from a re-analysis of the deposited data

Results flagged for a closer look

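No group had the 4 samples that a check for outlying samples needs. By limma's test of the difference itself, the genotype effect was not the same in PD + LIF and in 2i + LIF for 5 genes of the comparison lists and for 0 genes of the set. Lima1, which encodes an actin cross-linker, had an effect lower by 0.93 on the log2 scale in PD + LIF (a difference of −0.93 ± 0.07 SE, limma, adjusted p = 0.00717), where Trincr1-/- ESCs were at 44.98 FPKM and wild type at 74.2 FPKM. Itga5, the fibronectin receptor subunit, had a difference of 0.52 ± 0.09 (limma, adjusted p = 0.0443). For the collagen gene Col1a1 it was 1.11 ± 0.16 (limma, adjusted p = 0.028), between means of 0.409 and 1.89 FPKM in PD + LIF. For Hand1 it was 1.36 ± 0.16 (limma, adjusted p = 0.0231), between 0.473 and 2.87 FPKM. For Esrrb, a factor of naive pluripotency, it was −0.67 ± 0.08 (limma, adjusted p = 0.0267). Lima1 was called under all 15 alternatives run, 8 of them with a sample left out. The calls of Itga5, Col1a1, Hand1 and Esrrb did not hold in most fits with a sample left out. Itga5, Col1a1 and Hand1 were also not called with a pseudocount of 0.1 or with the replicate block. With no variance trend Itga5 and Esrrb were not called. All 5 kept their direction in every fit. Over all genes this comparison had 279 calls, 39 with the replicate block and 8 to 81 with a sample left out.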

How the results depend on the processing

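The alternatives run were another pseudocount, other filters, quantile and median ratio normalization, no variance trend, only the samples compared, a replicate block and each sample left out. Under each of them all 8 genes compared were higher in PD + LIF in both genotypes, and all 256 log2 differences kept their sign. The genes were chosen with these values known, so nothing is read from this. The sizes of the differences moved most with a pseudocount of 0.1. It took Tagln to 6.88 in wild type and 7.89 in Trincr1-/-, and Cnn1 to 5.12 and 4.49. Under quantile and median ratio normalization the calls over all genes were 49.1% and 50.3% higher in wild type, against 59.2%. In PD + LIF the genotype call of Cald1 was lost without a filter and without a variance trend (0 genes called in each), and the count was 0 to 1 with a sample left out. The SRF and MRTF targets called there numbered 1 to 7 with a sample left out, against 7, and the targets whose genotype effect differed between media numbered 1 with a pseudocount of 0.1, with no variance trend, with the replicate block and with any sample left out (1 to 1), against 2, Lima1 being kept and Itga5 lost. With the replicate block 1 gene of the set, Cald1, was still called between genotypes in PD + LIF (0.67 ± 0.15). Deviations of same-numbered samples correlated at −0.054 to 0.0063, so no pairing by number was seen in the values. This cannot exclude that same-numbered samples were handled together. For the pulldown, adding 1 FPKM to both values turned the median ratio of the 6 genes from 0 to 0.14. Estimated fragments of 0 to 7.1 per library limit every ratio of Tagln, Acta2, Cnn1 and Myl9 in 2i + LIF.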
